A study of Mus musculus with 22 samples.

Results

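Heat shock genes of the cytosol and the mitochondrion were followed in mouse duodenal organoids exposed to cold atmospheric plasma (CAP), an ionized gas rich in reactive oxygen and nitrogen species. The set was chosen by gene name and holds 10 of the 52636 genes of the deposited table: Hspa1a, Hspa1b, Hspa8, Hsph1, Hsp90aa1, Hspb1, Dnajb1, Hspd1, Hspe1 and Bag3. All 10 were found in the table and all 10 passed the filter on low values in each comparison. Against untreated organoids, Hspb1 passed it only with treated libraries counted. Organoids are self-organizing epithelial cultures grown from intestinal crypts in a gel matrix, and those used here came from wild type adult mice. RNA was sequenced as 22 libraries, 4 from untreated organoids and 3 from each of 6 treated groups. Organoid lines 1, 2 and 4 gave 1 library in every group, and line 3 gave an untreated library only. Lines 1 to 4 are those named CD1, WT2, 1 and 2 in the labels, at passage 12, 14, 4 and 4 in that order. For direct CAP, the plasma jet was applied to the organoid cultures at day 1 and the medium was exchanged after 30 min or 24 h. For indirect CAP, naive organoids received the medium of other organoid cultures that had been treated. For plasma-activated medium (PAM), they received medium that had been treated in the absence of organoids. Both media were left on for 24 h, starting at day 1 or at day 2, and by the published design all cultures were analysed at day 3. The study also describes genes of the direct CAP 30 min group as already induced 30 min after treatment. Whether that group was collected then or at day 3 is therefore uncertain. For both media, the library labels instead carry 30 min where the start was day 1 and 24 h where it was day 2. The longer exposure is used here for the earlier start too, as the published design describes it. Media given from day 1 were freshly generated, whereas those given from day 2 had also been generated at day 1. Cultures exposed from day 2 were collected without an interval in fresh medium. The start of exposure, the age of the medium and the time since the end of exposure therefore cannot be told apart. The replicates of a group are organoid lines from individual mice.

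Heat shock proteins are chaperones that keep other proteins folded. HSP70 proteins bind exposed hydrophobic stretches of their clients in cycles of ATP hydrolysis that HSP40 (DNAJ) proteins start and nucleotide exchange factors end, HSP90 acts on clients nearer to their final fold, and HSP60 with HSP10 forms a folding chamber inside the mitochondrion. When unfolded proteins accumulate, heat shock factor 1 (HSF1) forms trimers on heat shock elements, which are alternating copies of the short unit GAA and its reverse complement, and the inducible genes of the family are transcribed within minutes.

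The genes named here differ in structure in ways that bear on their measurement. Hspa1a (ENSMUSG00000091971, chr17:34969190-34972156) and Hspa1b (ENSMUSG00000090877, chr17:34956436-34959238) each consist of 1 exon on the minus strand of GRCm38 and lie 9951 bases apart. Of the 100-base windows of the Hspa1a exon, 47.07% also occur in Hspa1b, and of those of Hspa1b, 49.93% occur in Hspa1a. Most of the Hspa1a exon, 2225 of its 2967 bases, is also overlapped on the other strand by the annotated gene Gm20481, which ends short of the Hspa1a start. Hspd1 (ENSMUSG00000025980, chr1:55077835-55088243, minus strand) and Hspe1 (ENSMUSG00000073676, chr1:55088132-55091307, plus strand) are arranged head to head and overlap by 112 bases. Processed copies elsewhere in the genome share 26.26% of the 100-base windows of Hspa8 (with Gm15459), 31.62% of those of Hsp90aa1 (Gm12346), 43.98% of those of Hspb1 (Hsp25-ps1) and 22.39% of those of Hspd1 (Hspd1-ps3). No window of Hsph1, Dnajb1 or Bag3 was shared with another gene. Whether the authors' counting took strand into account is not given in the sources used here.

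Promoter sequence from RefSeq (GRCm38.p6, 250 bases before to 50 after a start) was found for 8 of the 10 genes. It was searched for a pair of heat shock units, either head to head (GAANNTTC) or tail to tail (TTCNNGAA). Both patterns read the same on either strand, and they overlap each other wherever units alternate. Either pair occurred in 15.1% of 32851 promoters of all genes, and 3 alternating units (GAANNTTCNNGAA on either strand) in 0.603%. The upstream sequences of Hspa1a (chr17:34972157-34972406, minus strand) and Hspa1b (chr17:34959239-34959488, minus strand) are shown because these genes changed most, and because the sequences are identical at 247 of 250 positions, with 1 head to head pair beginning 104 bases before the start in each. Capitals mark the pairs. Hspb1 had 2 pairs in its window, of which chr5:135887789-135887848 on the plus strand is shown. Hsph1 had 1 pair before and 2 after its start, and the stretch around the first of them is shown (chr5:149636347-149636376, minus strand). Hspe1 and Hspd1 share 1 run of 3 overlapping pairs, shown as read toward Hspe1 (chr1:55088053-55088082, plus strand). The run lies within the annotated Hspd1 gene, before another RefSeq start of Hspd1. The Hspd1 window at its annotated start (upstream part chr1:55088244-55088493, minus strand) had 0 pairs. Bag3 had 1 pair, 42 bases after its start, and the windows of Dnajb1 had 0.
Hspa1a: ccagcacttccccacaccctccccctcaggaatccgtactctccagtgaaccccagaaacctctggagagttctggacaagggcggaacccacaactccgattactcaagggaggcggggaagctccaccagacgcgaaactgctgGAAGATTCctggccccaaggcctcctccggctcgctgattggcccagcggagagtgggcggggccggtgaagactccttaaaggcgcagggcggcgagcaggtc
Hspa1b: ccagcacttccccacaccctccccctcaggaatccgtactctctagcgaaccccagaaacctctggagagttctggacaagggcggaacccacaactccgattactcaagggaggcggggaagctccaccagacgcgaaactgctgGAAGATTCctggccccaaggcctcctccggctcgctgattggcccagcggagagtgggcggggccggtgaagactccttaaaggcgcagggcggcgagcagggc
Hspb1: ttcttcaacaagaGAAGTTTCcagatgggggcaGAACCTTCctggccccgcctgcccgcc
Hsph1: agaatctTTCTCGAAggctcgagaagaagg
Hspe1: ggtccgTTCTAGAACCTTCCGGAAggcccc

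Values are the CP20M of the deposited table, read counts scaled to about 20 M per library (M for mega). The study's legends word the unit per kilobase of transcript, but the spacing of low values, which shows what 1 read is worth, did not depend on gene length. Depth estimated from it in short, middle and long genes differed by no more than 0.25 M from that of all genes in 18 of the 22 libraries and by up to 2.3 M in the other 4. The values were therefore taken as not divided by length, and levels per kilobase below were obtained by dividing them. The depth of the libraries was estimated at 19.85 to 28.65 M reads. Summed over 8 epithelial markers, the libraries lay between 89691 and 149491. The sums were 7 to 36 for 6 markers of fibroblasts and smooth muscle, 36 to 200 for 5 immune markers and 2 to 28 for 3 endothelial markers. The summed values of cell type markers changed with treatment. The summed value of 5 intestinal stem cell markers was 32557 to 38876 in the untreated libraries, 20274 to 32015 after direct CAP for 30 min, 5313 to 10861 after direct CAP for 24 h, 5936 to 15040 with indirect CAP from day 1, 1306 to 2640 with PAM from day 1, 2703 to 3953 with indirect CAP from day 2 and 757 to 2747 with PAM from day 2. These sums lay below the untreated range in every treated group, and were lowest with PAM from day 1 and with both media from day 2. With PAM from day 2 against untreated, the sum of 5 proliferation markers was 3861 to 7773 against 20128 to 26210, that of 4 goblet cell markers 17348 to 45771 against 72777 to 128934, and that of 4 enterocyte markers 112031 to 126013 against 66874 to 86828. In such bulk samples, fewer cells of a type and less RNA per cell cannot be told apart, and the part of these shifts in the results below was not tested.

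Comparisons were made with limma on log2(value + 1), and a call required an adjusted p (Benjamini-Hochberg over all genes tested) below 0.01 together with a change of 1 or more on the log2 scale. All comparisons with untreated organoids share the same 4 untreated libraries. Of the 10 heat shock genes, those for inducible HSP70 rose, most with the media given from day 2. The gene for the mitochondrial chaperonin, Hspd1, fell most with PAM from day 2 (log2 fold change -1.08). Its change was -0.61 (SE 0.11) with PAM from day 1 and -0.52 (SE 0.09) with indirect CAP from day 2, groups that were not compared with each other. Hspa1a and Hspa1b were called higher with both media from day 2, and Hspa1b also with PAM from day 1. Hspd1 was called lower with PAM from day 2. The called share of the 10 genes was 0 with direct CAP for 30 min, direct CAP for 24 h and indirect CAP from day 1, 1 gene with PAM from day 1, 2 with indirect CAP from day 2 and 3 with PAM from day 2. In the same order, 0.00564%, 2.17%, 1.31%, 10.2%, 11.9% and 17.3% of all genes tested were called. When only an adjusted p under 0.05 was required, whatever the fold change, the counts were 0, 3, 2, 6, 6 and 6 of the 10 genes, against 0.00564%, 17.3%, 20.6%, 41.8%, 43.8% and 47.6% of all genes. Of the 6 genes in each of the last 3 groups, 2 are the copies Hspa1a and Hspa1b. With the line as a replicate block the counts there were 5, 6 and 5, the first of which takes in Hspb1. These blocked counts are set beside the unblocked ones only, not beside a share of all genes. The median log2 fold change of the 10 genes lay between -0.26 and -0.13 in the 6 comparisons, where that of all genes lay between -0.13 and 0.02.

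**Figure D1:**
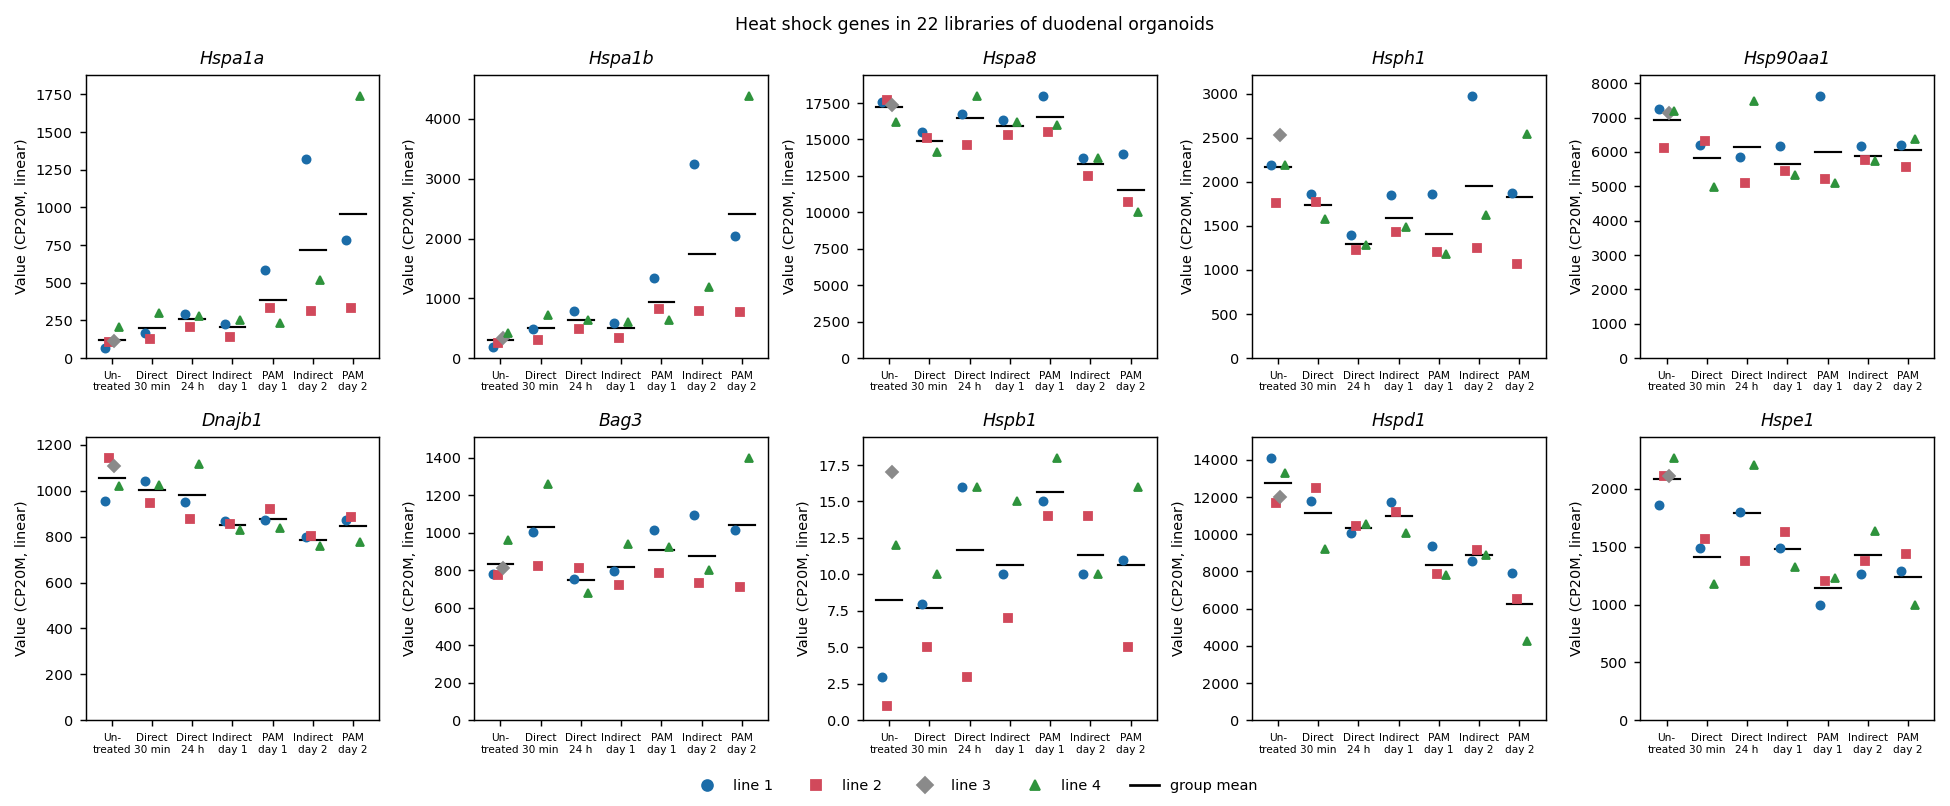
Values (CP20M, linear axis from 0) of the 10 heat shock genes in 22 libraries, with a symbol per organoid line and a bar at the mean of each group. Hspa1a and Hspa1b rise toward the groups treated from day 2 with wide spread, whereas Hspd1 declines from a mean of 12764 in untreated organoids to 6236 with PAM from day 2.

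The inducible HSP70 genes were low in untreated organoids. Per kilobase of exon, the means over the 4 untreated libraries were 41.2 ± 19.4 (SD) for Hspa1a and 107 ± 36.7 for Hspa1b, against 4002 ± 162 for Hspa8, the constitutive HSP70 of the cytosol. Hspa1b had values of 189, 249, 331 and 426 in the untreated libraries of lines 1 to 4. After direct CAP for 30 min it had 486, 311 and 724 in lines 1, 2 and 4, and after direct CAP for 24 h it had 790, 494 and 638. All 3 libraries at 24 h lay above every untreated library, and those at 30 min overlapped with them. With indirect CAP from day 1 the values were 594, 332 and 610, again overlapping with untreated organoids. PAM from day 1 gave 1346, 828 and 632. The values with indirect CAP from day 2 were 3248, 795 and 1190. Those with PAM from day 2 were 2050, 772 and 4391. In these last 3 groups every library lay above the untreated range, and which line was highest differed, line 1 with indirect CAP and line 4 with PAM from day 2. Line 2 was the lowest of the 3 lines in both groups treated from day 2.

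The log2 fold change of Hspa1b against untreated was 0.74 (SE 0.33) after direct CAP for 30 min and 0.79 (SE 0.30) with indirect CAP from day 1, with limma adjusted p of 0.209 and 0.095. It was 1.14 (SE 0.28, adjusted p = 0.0266) after direct CAP for 24 h, which missed the call on the p alone. Hspa1b was 1.64 (SE 0.32, adjusted p = 0.0044) higher with PAM from day 1. Its change was 2.34 (SE 0.46, adjusted p = 0.00422) with indirect CAP from day 2 and 2.74 (SE 0.54, adjusted p = 0.00431) with PAM from day 2. On the linear scale, the means with indirect CAP and PAM from day 2 were 5.84 and 8.05 times the untreated mean. Within lines 1, 2 and 4, the log2 difference from the untreated library of the same line was 4.10, 1.67 and 1.48 for indirect CAP from day 2. For PAM from day 2 it was 3.43, 1.63 and 3.36. These differences rest on the line labels of the untreated libraries, which the data put in doubt for lines 1 and 2, as described with the replicate block.

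Hspa1a moved in the same way at lower values. It had 69, 104, 112 and 204 in the untreated libraries of lines 1 to 4. In lines 1, 2 and 4 it had 1321, 313 and 517 with indirect CAP from day 2, and 787, 335 and 1743 with PAM from day 2, all above the untreated range. The log2 fold changes were 2.39 (SE 0.50, adjusted p = 0.00561) and 2.76 (SE 0.55, adjusted p = 0.00463). With PAM from day 1 it was 1.65 (SE 0.40), at an adjusted p of 0.0113 that missed the call, and after direct CAP for 24 h 1.16 (SE 0.33, adjusted p = 0.0442). The ratio of Hspa1a to Hspa1b stayed between 0.338 and 0.479 in all 22 libraries, and the log2 values correlated at r = 0.99 over the libraries. With the shared sequence of these copies the values are not independent measurements, and reads from either gene may have been counted on the other. The antisense gene Gm20481 followed Hspa1a at 0.588 to 0.741 of its value in every library, so the reads of these overlapping genes could not be told apart either. When the values of Hspa1a and Hspa1b were added and tested as 1 gene, the log2 fold change was 1.64 (adjusted p = 0.00557) with PAM from day 1, 2.36 (adjusted p = 0.00447) with indirect CAP from day 2 and 2.74 (adjusted p = 0.00427) with PAM from day 2.

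Several calls of the inducible pair were lost on the p when 1 library was left out. With PAM from day 2, both genes lost their call when line 1 was left out of the PAM group, or line 1, 2 or 3 out of the untreated group, at limma adjusted p between 0.0109 and 0.0154 and log2 fold changes of 2.52 to 2.81. With indirect CAP from day 2, Hspa1b lost it without treated line 4, untreated line 1 or untreated line 2 (adjusted p from 0.0104 to 0.0144). Hspa1a lost it there without treated line 1 or 4, or without untreated line 1, 2 or 3 (adjusted p from 0.0127 to 0.0176). With PAM from day 1, the call of Hspa1b was lost without treated line 1 or 2, or without untreated line 2 (adjusted p from 0.011 to 0.0148), and Hspa1a was called without the untreated library of line 4 (adjusted p = 0.00585). With lines entered as a replicate block, the pair stayed called with PAM from day 2 (log2 fold changes of 2.75 for Hspa1a and 2.81 for Hspa1b, adjusted p = 0.00434 and 0.00447). It was not called with indirect CAP from day 2 (2.39 and 2.42, adjusted p = 0.0237 and 0.0169) or PAM from day 1 (1.64 and 1.71, adjusted p = 0.061 and 0.0278). Blocked comparisons with untreated organoids rest on the line labels, and the untreated libraries of lines 1 and 2 each correlated more with the treated libraries of the other line (median r of 0.541 and 0.353, after group means were removed) than with their own (0.0751 and 0.132).

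**Figure D2:**
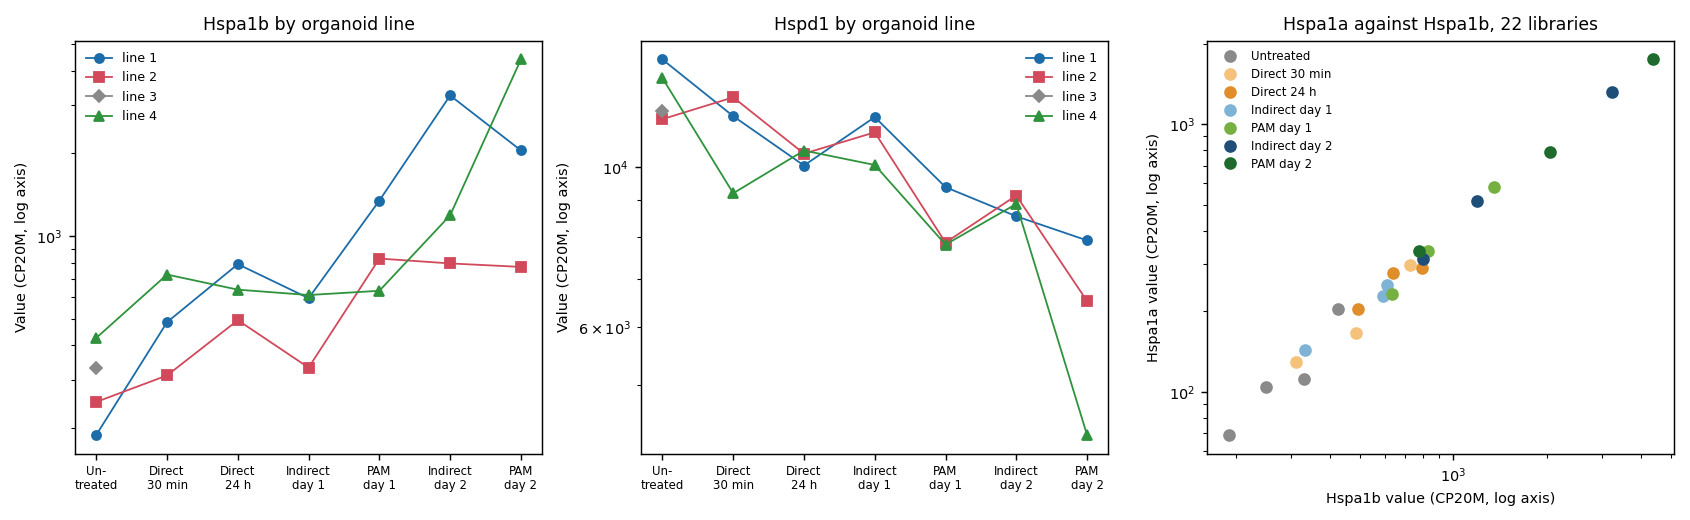
Values (CP20M, log axes) of Hspa1b and Hspd1 by organoid line across the 7 groups, with lines joining libraries of the same organoid line, and of Hspa1a against Hspa1b in 22 libraries. Hspa1b ends highest in line 4 with PAM from day 2 (4391), the library in which Hspd1 is lowest (4259), and the points of the right panel lie along a ratio of 0.338 to 0.479.

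The makeup of cytosolic HSP70 transcripts shifted accordingly. Per kilobase, Hspa1a and Hspa1b together made up 2.17 to 5.54% of the sum of Hspa1a, Hspa1b and Hspa8 in untreated organoids, 7.54 to 13.9% with PAM from day 1, 11.8 to 33.4% with indirect CAP from day 2 and 13.5 to 48.0% with PAM from day 2. Both parts of the ratio contributed, since Hspa8 was lower in the last 2 groups. The size of the shares depends on the length given to Hspa8, 4301 bases for its 10 annotated transcripts merged. A shorter length would lower every share, so they serve to compare groups only. Hspa8, which folds new proteins and uncoats vesicles in unstressed cells, had 17588, 17720, 17342 and 16192 in the untreated libraries of lines 1 to 4. It had 13737, 12502 and 13706 in lines 1, 2 and 4 with indirect CAP from day 2, and 13990, 10689 and 10023 with PAM from day 2. All 6 libraries lay below the untreated range. The log2 fold changes were -0.37 (SE 0.08, adjusted p = 0.00559) and -0.59 (SE 0.13, adjusted p = 0.00675), below the fold needed for a call. Without any 1 library the adjusted p stayed between 0.00156 and 0.024 in these comparisons. In the other 4 comparisons the log2 fold change of Hspa8 was between -0.21 and -0.06, at adjusted p of 0.17 to 0.697, although the 3 libraries after direct CAP for 30 min (14155 to 15543) also lay below the untreated range. The copy Gm15459 was at 0.461 to 0.506 of Hspa8 in every library, and reads may have been shared between them.

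Hsph1, an HSP110 protein that recharges HSP70 with ATP, was lowest after direct CAP for 24 h. Its values were 2193, 1759, 2534 and 2186 in untreated organoids of lines 1 to 4 and 1391, 1223 and 1281 in lines 1, 2 and 4 after direct CAP for 24 h, with no overlap. The log2 fold change was -0.73 (SE 0.12, adjusted p = 0.00854). With PAM from day 1 it was -0.64 (SE 0.18, adjusted p = 0.0223), and line 1 (1860) overlapped with the untreated libraries while lines 2 (1199) and 4 (1179) lay below them. In the groups treated from day 2 the lines diverged, with 2977 in line 1 and 1254 in line 2 with indirect CAP, and 2536 in line 4 and 1062 in line 2 with PAM. The log2 fold changes there were -0.24 and -0.33, with intervals of -0.85 to 0.37 and -0.95 to 0.30 that span no change. The lines with the most Hsph1 in these groups, line 1 with indirect CAP and line 4 with PAM, were also those with the most Hspa1a and Hspa1b. Bag3, a nucleotide exchange factor that hands HSP70 clients to autophagy, was highest in the same libraries of each of these groups, at 1092 and 1400. Each peak is 1 library, and other genes of the set did not share it. In the PAM library of line 4, Hspa8 (10023), Dnajb1 (776), Hspd1 (4259) and Hspe1 (999) were the lowest of the 3 lines. Hsp90aa1 (6362) and Hspb1 (16) were highest there. In the indirect CAP library of line 1, Hspd1 (8556) and Hspe1 (1262) were lowest, and Hspa8 (13737) and Hsp90aa1 (6161) highest.

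Bag3 was not past an adjusted p of 0.05 in any comparison with untreated organoids. Its values were 774 to 962 in the untreated libraries and 680 to 1400 in the treated ones, and its log2 fold changes lay between -0.15 and 0.29. Without the PAM library of line 2, however, the change with PAM from day 2 was 0.52 at a limma adjusted p of 0.0364. Hsp90aa1, the inducible HSP90 of the cytosol, had 7255, 6110, 7141 and 7202 in untreated lines 1 to 4, and its treated libraries lay between 4965 and 7640. Its log2 fold changes were all below 0, from -0.30 to -0.19, and none reached an adjusted p of 0.05. The nearest were indirect CAP from day 2 and from day 1, at limma adjusted p of 0.0512 and 0.0521, and both passed 0.05 with some libraries left out (lowest adjusted p of 0.0167 and 0.0431). PAM from day 1, at an adjusted p of 0.242, reached 0.0106 without its library of line 1. The interval after PAM from day 2 was -0.42 to 0.03, so a rise of the size seen for Hspa1b was outside it. Hspb1, the small heat shock protein that holds unfolded clients for refolding, was at 1 to 18 in all 22 libraries. A value of 10 stands for about 10 reads at this depth, and its errors were wide, for example a log2 fold change of 1.33 with an SE of 0.73 for PAM from day 1. With the line as a replicate block that change was 1.82, which again rests on the untreated line labels. Hspb1 had 3, 1, 17 and 12 in untreated lines 1 to 4. With PAM from day 1 it had 15, 14 and 18 in lines 1, 2 and 4. It passed the filter on low values only through treated libraries, so its values are given as a description.

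Dnajb1, the HSP40 protein that activates HSP70 after heat shock, was slightly lower with the conditioned media. It had 955, 1144, 1106 and 1020 in untreated lines 1 to 4 and 797, 802 and 760 in lines 1, 2 and 4 with indirect CAP from day 2, where the log2 fold change was -0.42 (SE 0.08, adjusted p = 0.00466). With indirect CAP from day 1, PAM from day 1 and PAM from day 2 all libraries again lay below the untreated range, at log2 fold changes of -0.31, -0.27 and -0.32 (adjusted p of 0.0367, 0.0429 and 0.0343). These last 3 passed an adjusted p of 0.05 in this fit but not with some libraries left out, when the adjusted p rose to as much as 0.0961, 0.137 and 0.0918. With the line as a replicate block they did not pass either, at limma adjusted p of 0.0808, 0.0793 and 0.0958. After direct CAP the changes were -0.07 at 30 min and -0.11 at 24 h, and the intervals, -0.27 to 0.13 and -0.36 to 0.14, included 0.

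**Figure D3:**
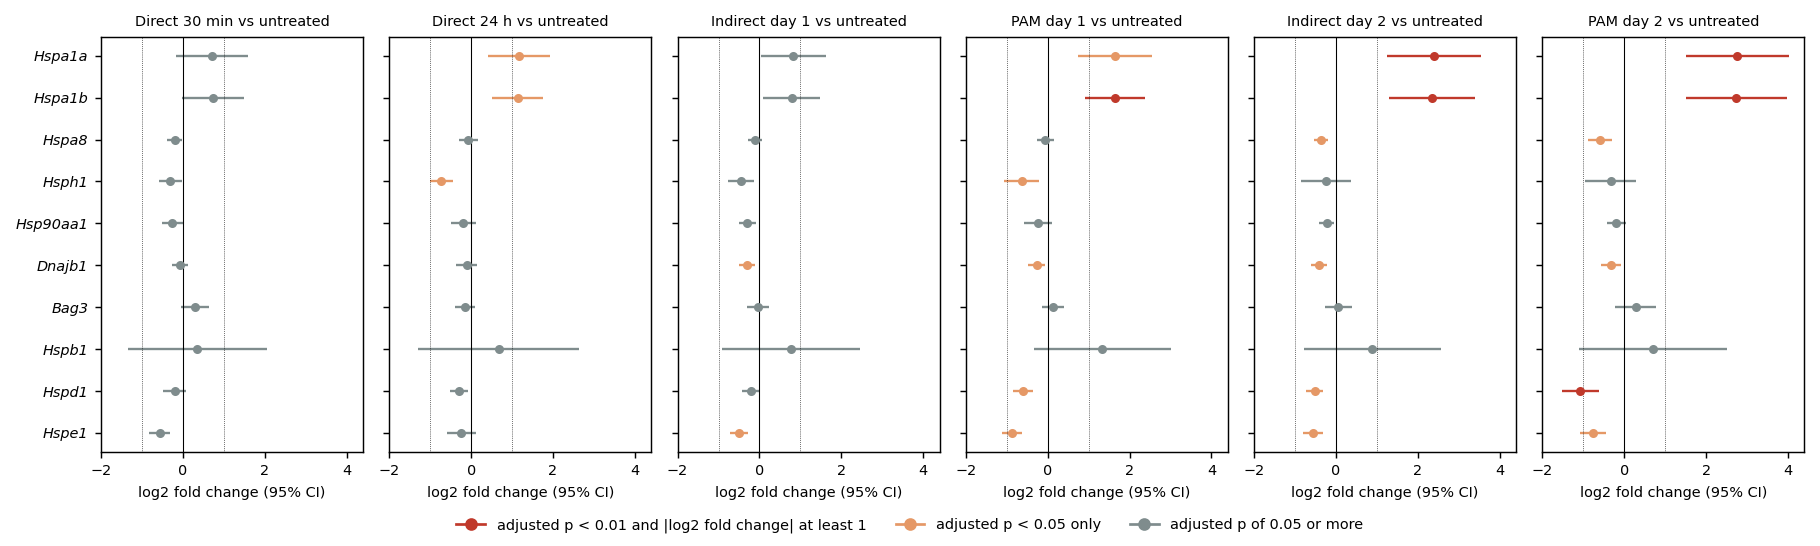
Log2 fold change against untreated (x axis, with 95% confidence interval) of the 10 heat shock genes, a panel per treated group. Red marks a call and orange an adjusted p under 0.05 only. Hspa1a and Hspa1b are the only genes called higher, and Hspd1 with PAM from day 2 (-1.08) is the only gene called lower.

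The mitochondrial chaperonin gene Hspd1 was abundant in untreated organoids, but whether it ranked above Hspa8 depended on the division by length. Before division, Hspa8 had the higher mean, 17210 against 12764. Its 10 annotated transcripts merge into 3 exons of 4301 bases, and a shorter length would raise its level per kilobase. Per kilobase of merged exon, Hspd1, which encodes HSP60, averaged 4831 ± 433 (SD, n = 4) and Hspa8 4002 ± 162. Hsp90aa1 ranked next at 1762 ± 139, then Hspe1, which encodes the lid protein HSP10, at 1416 ± 114. Dnajb1 (330 ± 26.6), Bag3 (325 ± 34.5) and Hsph1 (298 ± 43.7) followed within each other's spread, then Hspa1b, Hspa1a and Hspb1 (8.0 ± 7.32). Hspd1 had values of 14112, 11666, 11980 and 13298 in untreated lines 1 to 4. It had 10061, 10450 and 10553 in lines 1, 2 and 4 after direct CAP for 24 h, 9389, 7867 and 7817 with PAM from day 1, 8556, 9142 and 8898 with indirect CAP from day 2, and 7922, 6528 and 4259 with PAM from day 2. In these 4 groups each library lay below each untreated library. The log2 fold changes were -0.30 (adjusted p = 0.0676), -0.61 (SE 0.11, adjusted p = 0.00259), -0.52 (SE 0.09, adjusted p = 0.00207) and -1.08 (SE 0.20, adjusted p = 0.00331). The last was the only call. It was lost without the PAM library of line 4, where the log2 fold change was -0.82 at an adjusted p of 0.00158, and when untreated line 1 or 4 was left out (adjusted p of 0.0113 for each). With the line as a replicate block it was -1.10 (adjusted p = 0.00922).

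Hspe1, transcribed from the other strand of the same promoter region, was also lower with both media. It had 1861, 2108, 2109 and 2269 in untreated lines 1 to 4 and 996, 1207 and 1229 in lines 1, 2 and 4 with PAM from day 1, its lowest group mean. With indirect CAP from day 2 it had 1262, 1377 and 1640, and with PAM from day 2 it had 1292, 1434 and 999. All of these libraries lay below the untreated ones. After direct CAP for 24 h the values were 1799, 1378 and 2205, which overlapped with untreated organoids, at a log2 fold change of -0.24 (adjusted p = 0.318). Below the untreated range were also those of indirect CAP from day 1 (1329 to 1627) and of direct CAP for 30 min (1177 to 1570). The log2 fold changes were -0.87 (SE 0.10, adjusted p = 0.000531) with PAM from day 1, -0.55 (SE 0.11, adjusted p = 0.004) with indirect CAP from day 2, -0.76 (SE 0.14, adjusted p = 0.003) with PAM from day 2 and -0.49 (SE 0.10, adjusted p = 0.0139) with indirect CAP from day 1. After direct CAP for 30 min it was -0.57 (SE 0.12), at a limma adjusted p of 0.1. The ratio of Hspe1 to Hspd1 ran from 0.106 to 0.235 over the 22 libraries. The share of values on the mitochondrially encoded genes moved with these groups, from 1.24 to 1.54% in untreated organoids to 0.789 to 1.02% with PAM from day 1, 0.720 to 0.826% with indirect CAP from day 2 and 0.668 to 0.881% with PAM from day 2, and its part in the lower values of Hspd1 and Hspe1 was not tested. Over the 22 libraries, which share organoid lines and treatments, the log2 values of Hspd1 correlated with those of Hspa8 at r = 0.78 and with those of Hspa1b at r = -0.80.

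The treated groups were next compared with each other, without the shared untreated libraries, to ask whether the mode or the start of exposure mattered. A later start also came with an older medium and with no interval in fresh medium. None of the 10 genes was called in the 7 comparisons. Of all genes tested, 0% were called in each of these comparisons, except that 0.0111% were for indirect CAP from day 2 against day 1. For direct CAP for 24 h against 30 min, the log2 difference was 0.46 for Hspa1a, 0.39 for Hspa1b and -0.10 for Hspd1. Against direct CAP for 24 h, Hspa1b differed by -0.35 (interval -0.98 to 0.28) with indirect CAP from day 1 and by 0.50 (-0.18 to 1.18) with PAM from day 1. For the same gene, PAM against indirect CAP gave 0.85 (0.06 to 1.64, adjusted p = 0.212) from day 1 and 0.39 (-1.33 to 2.12) from day 2. The latter turned to -0.21 without the PAM library of line 4 and to -0.04 without the indirect CAP library of line 2, and for Hspa1a from 0.37 to -0.22 and -0.10. Hspd1 was lower with PAM than with indirect CAP by 0.40 on the log2 scale from day 1 (limma adjusted p = 0.165) and by 0.55 from day 2 (limma adjusted p = 0.523). With the line as a replicate block the adjusted p was 0.0297 from day 1, when Hspd1 was lower in 3 of 3 lines by 0.32 to 0.51, and 0.167 from day 2. Hspe1 was lower by 0.38 from day 1 in that fit (adjusted p = 0.0487).

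For indirect CAP, day 2 against day 1 gave log2 differences of 1.57 for Hspa1a and 1.56 for Hspa1b at adjusted p of 0.136 and 0.141, and -0.31 for Hspd1 (adjusted p = 0.113). These libraries pair by line, since treated libraries of the same line correlated in 45 of 45 pairs after group means were removed (r from 0.219 to 0.806), against a median of -0.33 between lines. With the line as a replicate block, Hspa1a (adjusted p = 0.00147) and Hspa1b (adjusted p = 0.000963) were both called, beside 3.46% of all genes. Within lines 1, 2 and 4, Hspa1b was higher from day 2 by 2.45, 1.26 and 0.96 on the log2 scale. For PAM, day 2 against day 1 gave 1.11 for Hspa1a, 1.10 for Hspa1b and -0.46 for Hspd1, with adjusted p of 0.282, 0.288 and 0.246, and no heat shock gene was called with the block. Hspa1b differed by 0.61 in line 1, -0.10 in line 2 and 2.79 in line 4.

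Related genes of protein folding were counted over lists chosen by function. Among 6 factors and regulators of the heat shock response, Hsf1, the factor that drives the inducible genes, had a value of 850.5 ± 149 (SD, n = 4) in untreated organoids and 983 ± 146 (n = 3) with PAM from day 2, with log2 fold changes from -0.27 to 0.22 over the 6 comparisons and adjusted p of 0.172 or more. Hsf2 had 264 ± 51.5 and 241 ± 72.3, with log2 fold changes from -0.23 to 0.07. Hsf5, the gene called in this list, was at 2 to 6 in untreated libraries, 15 to 34 with indirect CAP and 28 to 62 with PAM from day 2. It passed the filter on low values only through the groups treated from day 2, so its values are given as a description. Of 8 other HSP70 and HSP110 genes, 7 were tested. Hspa2, best known from male germ cells, was higher with PAM from day 1 (log2 fold change 1.2, SE 0.21, adjusted p = 0.0027). Hspa14, a ribosome-bound HSP70, was lower with PAM from day 2 (-1.26, SE 0.15, adjusted p = 0.000573).

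Against untreated organoids, 43.8% of all genes passed an adjusted p of 0.05 with indirect CAP from day 2 and 47.6% with PAM from day 2. The latter were 3268 higher and 5151 lower of 17694 genes, or 4230 and 4350 with quantile normalization, so an excess of lower genes depends on the scaling. Of 15 further HSP90 genes and co-chaperones, 9 were lower and 1 higher at an adjusted p under 0.05 in each of the groups treated from day 2. Fkbp4, a co-chaperone of steroid receptors, averaged 9134.5 in untreated organoids and 3102 with PAM from day 2 (log2 fold change -1.62, SE 0.21, adjusted p = 0.000763). Fkbp5, its relative and a glucocorticoid-induced gene, was 385 ± 136 in untreated organoids and 2261 ± 713 with PAM from day 1 (2.57, SE 0.29, adjusted p = 0.000449), whereas it was 255 ± 109 with PAM from day 2. Of 16 further DNAJ genes, Dnajc9, which chaperones histones as well as HSP70 clients, was called lower with PAM from day 2 (-2.02, SE 0.20, adjusted p = 0.000378). Of 10 nucleotide exchange factors and partners, 5 were lower and 0 higher at an adjusted p under 0.05 with PAM from day 2. Bag2 was called lower there (-1.67, SE 0.33, adjusted p = 0.00476). Of 8 further small heat shock genes, at most 5 passed the filter and 0 passed an adjusted p of 0.05.

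In the mitochondrion, 16 further chaperones and proteases divided, with 4 higher and 5 lower at an adjusted p under 0.05 with PAM from day 2. Lonp1, the protease that removes damaged matrix proteins, averaged 3658.5 ± 427 in untreated organoids, 8447 ± 1059 with indirect CAP from day 2 (log2 fold change 1.21, SE 0.12, adjusted p = 0.000174) and 7036 ± 844 with PAM from day 2, opposite in direction to Hspd1 and Hspe1. Of the 14 genes of the cytosolic chaperonin and prefoldin, 9 were lower and 0 higher at an adjusted p under 0.05 with PAM from day 2 (median -0.31 on the log2 scale). Of 31 proteasome subunits, 14 were lower and 0 higher (median -0.24). The 47.6% of all genes past that threshold takes in both directions, with the split given above. Of 17 chaperones of the endoplasmic reticulum, 16 were tested there, of which 9 were lower and 1 higher. Pdia6 (-1.23, SE 0.15) and Sdf2l1 (-1.26, SE 0.15) were called lower, and Dnajb9, a target of the unfolded protein response, was called higher (1.45, SE 0.17), with adjusted p of 0.000582, 0.000561 and 0.000542. The median of all genes tested was -0.12 with PAM from day 2. This median was 0.00027 with quantile normalization, so log2 values of that size depend on the scaling.

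**Figure D4:**
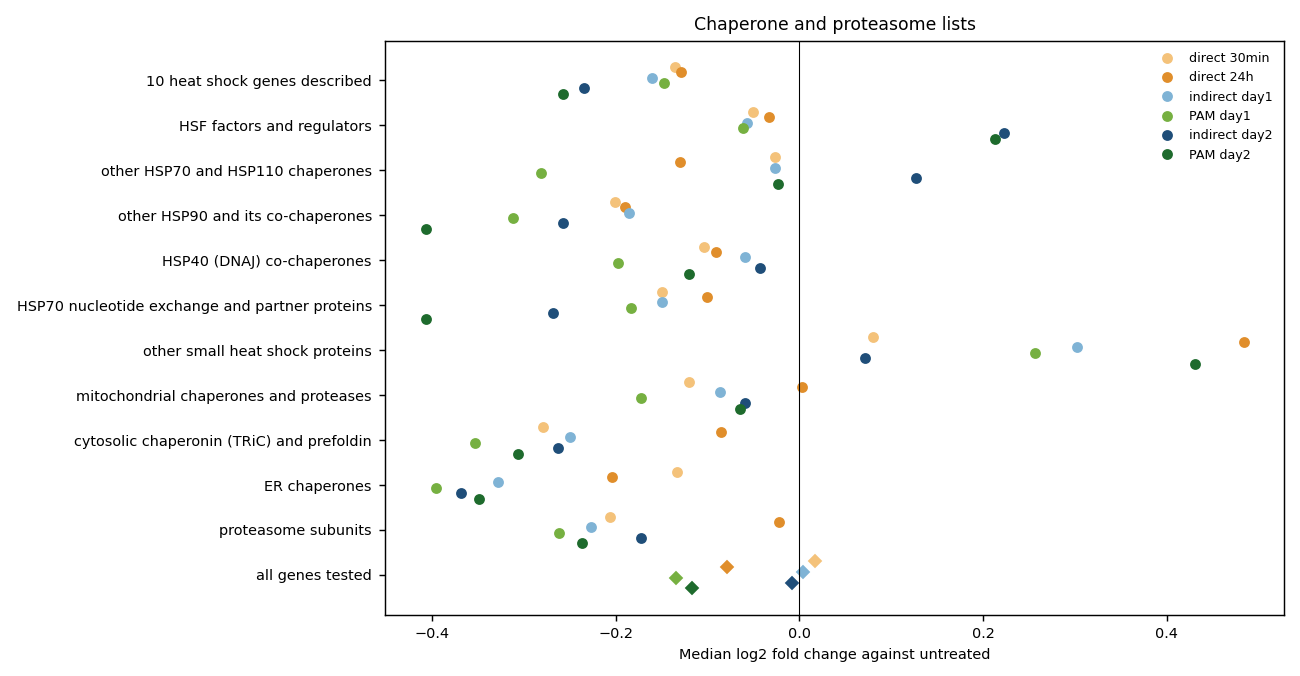
Median log2 fold change against untreated (x axis) of each chaperone and proteasome list, with a color per treated group, and of all genes tested (diamonds, bottom row). With PAM from day 2 the lists of HSP90 co-chaperones and of nucleotide exchange factors have medians of -0.41, and all genes tested -0.12.

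The genes most like the mean of the set were sought among 3015 genes. These had a mean value of at least 100 and group means that spanned at least 1 on the log2 scale. The mean of the set runs over genes that moved in both directions, and Hspa1a and Hspa1b, which moved most, weigh most in it. Hspb1, near the floor at 1 to 18, also varied widely on the log2 scale and weighs in the mean too. Hspd1 ran opposite to Hspa1b (r = -0.80), so likeness to the mean is not likeness to each of the 10 genes. Over the 7 group means, the mean of the 10 genes' log2 values correlated best with Gm20481 (r = 0.98), the gene antisense to Hspa1a whose reads cannot be told apart from those of that member, followed by Tnfsf9, Plat, Ttyh1 and 9130230L23Rik (r of 0.98 for each). Over the 22 libraries the best were Cdh16 (r = 0.90), Cryab (0.89), Loxl4 (0.87), Lor (0.87) and Gm20481 (0.86). Cryab encodes a small heat shock protein.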

How the data were processed

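RNA of 22 libraries of duodenal organoids was sequenced in paired ends. Per the labels, the authors used Trimmomatic 0.36, STAR 2.5.3a and HTSeq 0.9.1 with GRCm38. The deposited table holds a score made by the authors, CP20M, a read count scaled to about 20 M per library and rounded up. Division by length, which the study's legends mention, was checked through the spacing of low values and not found. Raw counts were not used here, so count tests were not run, and precision was judged from an estimated depth of 19.85 to 28.65 M reads. An estimate near 20 M is also what values without spacing give.

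Genes were tested on log2(value + 1) with the trended moderated test of limma 3.58.1 in R 4.3.3, keeping genes that reached 10 in 3 or more libraries, and with only the 2 groups compared in each fit. Calls required a Benjamini-Hochberg adjusted p below 0.01 together with a change of 1 on the log2 scale. The script was tested on simulated data. The genes and lists were chosen with earlier results of these data known. All 10 genes are named. Up to 4 called genes per list are named by size of change, with Hsf1 and Hsf2 added. One gene that this rule names is not reported here. Genes were matched to GENCODE vM21 (99.7% of identifiers) and promoters to RefSeq. Lengths are merged exons. The alternatives tried were the line as a replicate block, each library left out, quantile normalization, one fit of all 7 groups, no filter, a pseudocount of 10, and an adjusted p under 0.05 alone. Treated libraries pair by line, as reported with the comparisons. Adding Hspa1a and Hspa1b was chosen after seeing the data. Replicates are lines from separate mice. Figures were drawn with matplotlib 3.10.9.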

Additional observations from a re-analysis of the deposited data

Results flagged for a closer look

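In the untreated group, the only group of 4, the library of line 2 stood apart for Hsp90aa1. Its value of 6110 was below the next by 0.9 of the group's range. Chance flags about 1 in 20 groups, and 10 genes were examined. The effect of indirect CAP differed between a start at day 2 and at day 1 for Hspa1a, by 1.57 on the log2 scale, and for Hspa1b, by 1.56, in the limma fit that used organoid lines as a replicate block (adjusted p = 0.00147 and 0.000963), with Hspa1b higher in 3 of 3 lines. Without the block neither difference passed (adjusted p = 0.136 and 0.141). The copies share sequence and do not give independent results.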

How the results depend on the processing

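Counts are of the 10 heat shock genes past the threshold. With quantile normalization PAM from day 1 against untreated gave 2 in place of 1, and with all 7 groups in one fit 0. With the line as a replicate block it gave 0, indirect CAP from day 2 gave 0 in place of 2, and indirect CAP from day 2 against day 1 gave 2 in place of 0, while the block changed no other count. With Hspa1a and Hspa1b added as 1 gene, indirect CAP from day 2 gave 1. Requiring only an adjusted p under 0.05 gave 3 for direct CAP for 24 h, 2 for indirect CAP from day 1 and 6 in each of the other 3 groups given medium. Without 1 library the counts were 0 to 2 for PAM from day 1, 0 to 2 for indirect CAP from day 2 and 0 to 3 for PAM from day 2. A pseudocount of 10 and no filter left each count within 1.5 times.

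Directions changed for small values. With quantile normalization Hspb1 after direct CAP for 30 min was -0.17 and Bag3 with indirect CAP from day 1 was 0.0204. Without 1 library the log2 fold change ran from -0.22 to 0.60 for Hspb1 after direct CAP for 30 min, from -0.14 to 0.0136 for Hspa8 after direct CAP for 24 h, and from -0.13 to 0.0602 for Bag3 with indirect CAP from day 1. With indirect CAP from day 2 it ran from -0.59 to 0.0293 for Hsph1 and from -0.11 to 0.18 for Bag3, and for Hsph1 with PAM from day 2 from -0.61 to 0.0177. For PAM against indirect CAP from day 2 it ran from -0.22 to 0.97 for Hspa1a and from -0.21 to 1.04 for Hspa1b. The cause was not tested. Depth limits Hspb1, which was at 1 to 18.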
